A study of Mus musculus with 6 samples.

Results

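The genes described here mark the flat alveolar type I cell of the lung, which lines most of the alveolar surface and across which gas is exchanged. They are Gp38 (the array's name for Pdpn), Ager, Aqp5, Clic5, Emp2, Cav1, Gprc5a, Hopx and Rtkn2. They were taken by symbol with all their probes, which gave 10 probes for 9 genes among the 25697 probes for 18138 symbols of the array. Lungs of male mice of the FVB strain at postnatal day 6 were compared between 3 hSRY-OFF and 3 hSRY-ON animals, on Illumina MouseRef-8 BeadChips with 1 array for each sample. By these labels every mouse carried a single-copy Signalox-hSRY transgene at the H11 locus in the FVB/N background. In hSRY-OFF mice it was not recombined, and since the study also used littermates lacking the transgene as controls, that genotype rests on the label. In hSRY-ON mice it had been recombined in the one-cell embryo by Cre recombinase from the eggs of Ddx4-Cre mothers, which placed FLAG-tagged human SRY under the CAG promoter, active in most cell types, and the animals chosen for the arrays did not carry Ddx4-Cre themselves. The activation was therefore in the whole body and not confined to the lung or to alveolar cells. The whole lung was used, so a lower signal from fewer type I cells cannot be told apart from less RNA in each cell.

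Type I cells arise from the columnar epithelium of the distal lung late in gestation, and they spread and flatten further while the first air sacs are divided into alveoli after birth. They share an origin with the cuboidal, surfactant-making type II cells, which can also replace them after injury through a keratin-rich transitional state. Entry into the type I state depends on the transcription factor Nkx2-1 and on YAP and TAZ, the coactivators of the Hippo pathway, which act through TEAD proteins. Podoplanin, the product of Pdpn, is the usual protein stained to see these cells, and an antibody to it was used in the study.

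Between 13191 and 14134 probes were detected on an array, and 13841 probes were tested for a difference (limma). Values below are normalized log2 intensities of single probes. Levels of different probes are not comparable with each other, because each probe binds its transcript with its own strength.

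The label was examined first on these markers. All 8 probes of Gp38, Ager, Aqp5, Clic5, Emp2, Cav1 and Gprc5a were detected on all 6 arrays, so that none of them entered the comparison through 1 group alone. The single probes of Hopx, a homeodomain cofactor of type I cells, and of Rtkn2 were not detected on any array and were not tested. The deposited intensity of the Hopx probe lay between 132.5 and 168.6 on the 6 arrays and that of the Rtkn2 probe between 158.7 and 175.9, and the median of all probes of an array between 177.1 and 204.008. Neither probe therefore gave a measurement of its gene in either group.

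**Figure D1:**
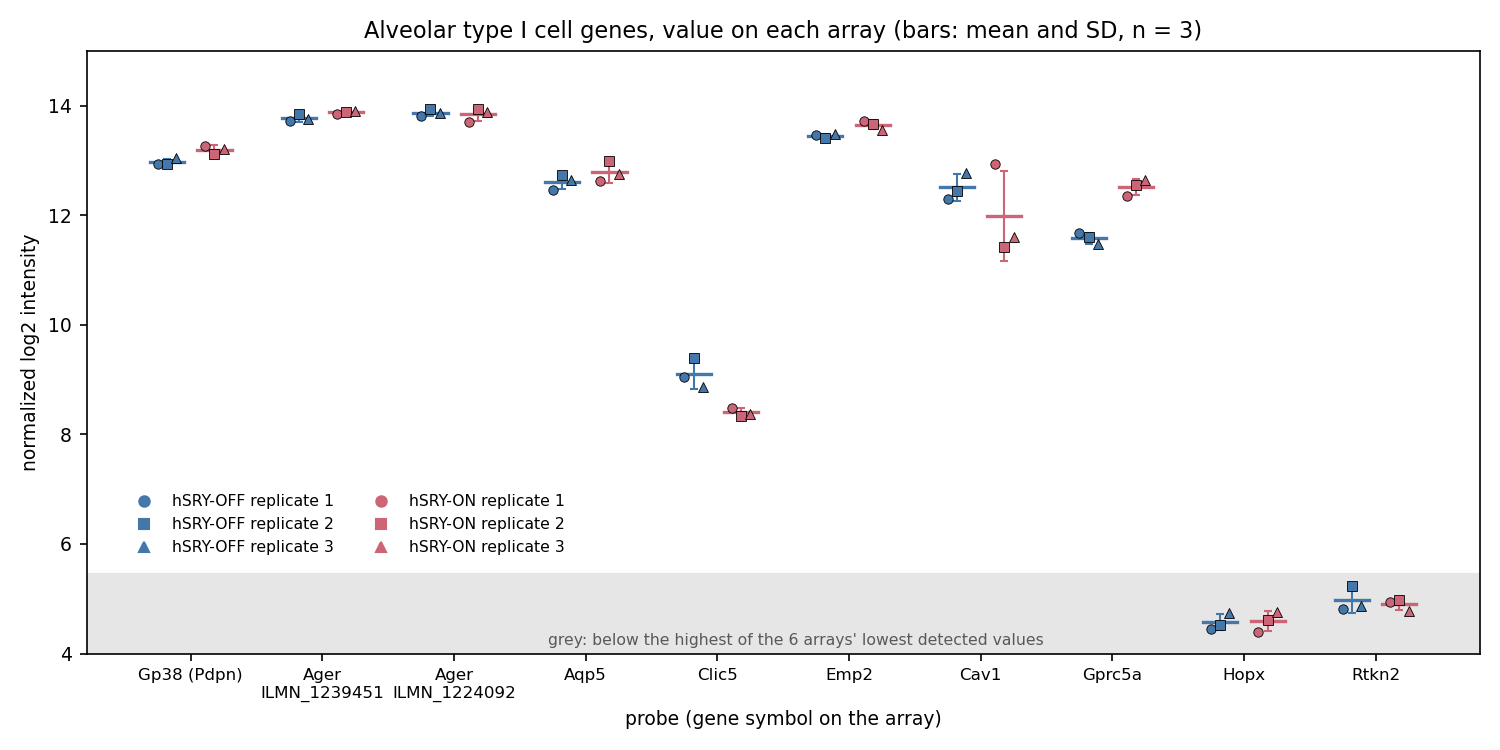
Normalized log2 intensity (vertical axis) of each of the 10 probes on the 6 arrays, with the mean and SD of each group (n = 3); blue points are hSRY-OFF, red points hSRY-ON, and the shapes mark the replicate. Gprc5a lay higher and Clic5 lower on every hSRY-ON array, Cav1 was spread widely in hSRY-ON, and both Hopx and Rtkn2 lay in the grey range under the highest of the arrays' lowest detected values.

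The type I genes did not move together. Of the 8 tested probes, Gprc5a was higher in hSRY-ON lungs, Clic5 was lower, and 6 did not pass the test (limma, adjusted p under 0.05). These 2 calls are 25% of the tested probes, and 26.9% of all tested probes were called in the same comparison (13.6% higher and 13.3% lower). The share of called probes was therefore near that of the array. The hSRY-ON and hSRY-OFF values were fully separate for 5 of the 8 probes (62.5%), against 46.6% of all tested probes. The median change of the 8 probes was 0.14 on the log2 scale, beside -0.03 for all tested probes. With median scaling these medians were 0.32 and -0.03.

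Gprc5a encodes a retinoic acid-induced orphan receptor of lung epithelium. It measured 11.67, 11.59 and 11.47 on the hSRY-OFF arrays and 12.36, 12.55 and 12.65 on the hSRY-ON arrays. Every hSRY-ON lung was above every hSRY-OFF lung. Means of 11.58 ± 0.11 (SD, n = 3) and 12.52 ± 0.15 (SD, n = 3) gave a rise of 0.94 ± 0.13 (SE) on the log2 scale, which passed the test (limma, adjusted p = 0.00384). This corresponds to a 1.92-fold higher level, with a 95% confidence interval from 1.55 to 2.37. The rise was larger in size than the changes of 88.4% of all tested probes. The part of other lung epithelial cells in the Gprc5a values was not tested.

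Clic5 encodes an intracellular chloride channel family protein that is tied to ezrin and the cortical actin of the cell surface. Its probe measured 9.04, 9.38 and 8.86 in hSRY-OFF and 8.49, 8.34 and 8.38 in hSRY-ON lungs. All hSRY-ON lungs lay below the hSRY-OFF lungs, and the spread was wider in hSRY-OFF. The means were 9.10 ± 0.26 (SD, n = 3) and 8.40 ± 0.08 (SD, n = 3). The change was -0.70 ± 0.16 (SE; limma, adjusted p = 0.0189), so that the hSRY-OFF level was 1.62 times that of hSRY-ON. The call was lost without hSRY-OFF replicate 1 (adjusted p = 0.0632), hSRY-OFF replicate 2 (0.0611) or hSRY-ON replicate 2 (0.0592), with changes between -0.73 and -0.56.

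Gp38 measured 12.94, 12.94 and 13.04 in hSRY-OFF lungs and 13.27, 13.11 and 13.21 in hSRY-ON lungs. The groups did not overlap, but the difference was small. Podoplanin is a mucin-like membrane protein of the apical surface. The 95% confidence interval of its log2 change ran from -0.04 to 0.49, which corresponds to between 0.976 and 1.40 times the hSRY-OFF level, and the change did not pass the test (limma, adjusted p = 0.170). Mesothelial and lymphatic endothelial cells also make podoplanin. Of all genes, with 1 probe each, 14.9% were called higher and 12.9% lower in hSRY-ON. All 3 tested mesothelial genes (of 5 in the list) were higher in hSRY-ON, Upk3b by 1.17, Msln by 1.36 and Upk1b by 1.61 on the log2 scale (limma, adjusted p = 0.00239, 0.0307 and 0.0289). Their summed signal ranged from 2995 to 3201 in hSRY-OFF and from 6091 to 9618 in hSRY-ON lungs. Of the lymphatic endothelial genes, 3 of 5 were tested and none passed in limma at either an adjusted or an unadjusted p under 0.05, with changes from 0.09 to 0.39. Their summed signal ranged from 3339 to 3643 and from 3610 to 5095. The part of these cells in the Gp38 signal was not tested.

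Ager encodes RAGE, a receptor of the immunoglobulin family that is most abundant in the lung at the basal surface of type I cells. It has a pair of probes. The first (ILMN_1239451) measured 13.71, 13.84 and 13.75 in hSRY-OFF and 13.85, 13.89 and 13.90 in hSRY-ON lungs. The second (ILMN_1224092) measured 13.81, 13.94 and 13.86, and 13.71, 13.93 and 13.88. The groups were just separate on the first probe and overlapped on the second. Their changes were 0.11 with an interval from -0.14 to 0.36, and -0.03 with an interval from -0.31 to 0.25 (limma, adjusted p = 0.465 and 0.872). The second probe changed sign with the scaling, to 0.20 with median scaling and 0.037 with cyclic loess. With quantile normalization both intervals exclude a 1.5-fold change in either direction. The first probe was at 0.33 with median scaling and was not called, and no interval is given for that fit.

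Aqp5, the water channel of the apical type I cell surface, measured 12.46, 12.74 and 12.64 in hSRY-OFF and 12.62, 13.00 and 12.74 in hSRY-ON lungs. These ranges overlapped. Its change was 0.17 with an interval from -0.17 to 0.52 (limma, adjusted p = 0.406). Emp2, a tetraspan membrane protein that organises lipid rafts and integrins, measured 13.46, 13.41 and 13.48, and 13.72, 13.67 and 13.56. Here the hSRY-ON lungs were all above the hSRY-OFF lungs. The change of 0.20, with an interval from -0.06 to 0.46, did not pass the test (limma, adjusted p = 0.220). Gp38, Aqp5 and Emp2 thus had changes of 0.17 to 0.23, and each interval included 0. With median scaling in place of quantile normalization their changes were 0.38, 0.30 and 0.39, and none was called.

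**Figure D2:**
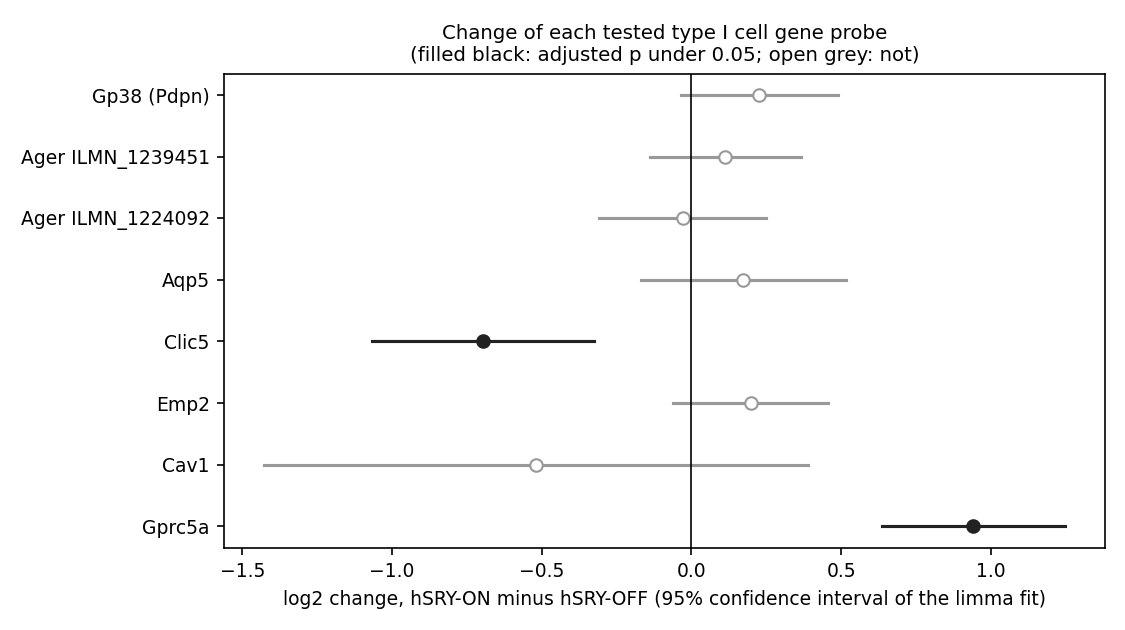
Log2 change of each of the 8 tested probes (horizontal axis, hSRY-ON minus hSRY-OFF) with the 95% confidence interval of the limma fit. The intervals of Gprc5a and Clic5 exclude 0 and lie on opposite sides, while that of Cav1, from -1.43 to 0.39, is the widest of the 8.

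Cav1 was the most variable of the genes. Caveolin 1 builds the coat of caveolae, the small membrane pits that are dense in both type I and capillary endothelial cells. It measured 12.30, 12.45 and 12.77 in hSRY-OFF lungs. In hSRY-ON lungs it measured 12.93, 11.43 and 11.60. Replicate 1 of hSRY-ON was thus above every hSRY-OFF lung, and the other two were below them all. The SD was 0.82 in hSRY-ON and 0.24 in hSRY-OFF, where the median SD of a tested probe was 0.223 and 0.13, respectively. The change of -0.52 ± 0.39 (SE) did not pass the test (limma, adjusted p = 0.35). Without hSRY-ON replicate 1 it was -0.98 and passed (adjusted p = 0.00974).

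The other caveola genes were set beside it. All 6 genes of the list were tested, of which 1 (16.7%) was called, whereas 27.9% of all genes, with 1 probe each, were called (14.9% higher and 12.9% lower). Ptrf, which encodes cavin 1, the main coat protein besides the caveolins, was lower by 0.64 (adjusted p = 0.0445, limma), on values of 9.77, 9.59 and 9.11 in hSRY-OFF and 8.71, 8.87 and 8.97 in hSRY-ON lungs. Without hSRY-OFF replicate 3 Ptrf was still called, and without any other single array it was not, with an adjusted p from 0.0598 to 0.144. No caveola gene was called with cyclic loess, without a filter on dim probes, with detection on at least 1 array or with the replicate number as a block. Cav2, the partner of Cav1 in hetero-oligomers, measured 11.01, 11.20 and 10.54, and 10.81, 10.41 and 10.0004, a change of -0.51 (adjusted p = 0.168). The changes of Ehd2, Sdpr (cavin 2), Prkcdbp (cavin 3) and Pacsin2 were -0.61, -0.20, -0.04 and 0.26, and none was called (limma, adjusted p from 0.0543 to 0.876). A dimmer Pacsin2 probe stood on the other side of 0, at -0.46, and was not called either. Within hSRY-ON, replicate 1 had the highest value of Cav1, Cav2, Sdpr and Prkcdbp, but the lowest of Ptrf and Pacsin2.

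**Figure D3:**
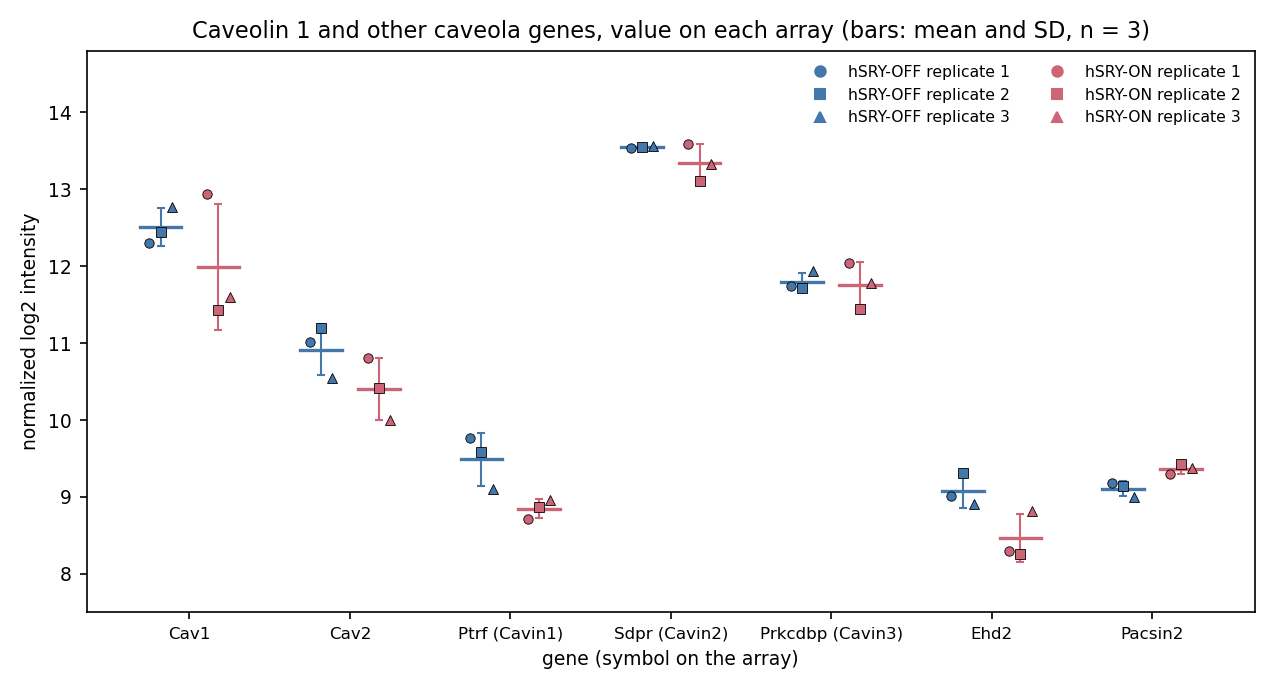
Normalized log2 intensity (vertical axis) of Cav1 and the other caveola genes on the 6 arrays, with the mean and SD of each group (n = 3). Replicate 1 of hSRY-ON (red circle) stands above the other hSRY-ON lungs for Cav1 at 12.93, and also for Cav2, Sdpr and Prkcdbp.

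Blood vessel endothelium shares Cav1 and the caveola genes with type I cells. Of 10 endothelial genes 9 were tested, and 4 (44.4%) were lower and none higher in hSRY-ON (limma), where 12.9% of all genes were called lower. The changes of all 9 were between -0.82 and -0.12. With median scaling 2 were called, with a median of -0.30 in place of -0.42, and with the replicate number as a block also 2. The adhesion protein of endothelial junctions Cdh5 changed by -0.48 and Esam by -0.47 (adjusted p = 0.0295 and 0.0310), beside Tie1 and Cldn5. The summed signal of the 9 genes ranged from 82879 to 87472 in hSRY-OFF and from 65611 to 68364 in hSRY-ON lungs, where it was highest in replicate 1. The part of the endothelium in the Cav1 values was not tested.

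To see whether the type I cell changed beyond the 9 genes, 26 further genes known from these cells were listed, of which 22 were on the array and 21 were tested. In hSRY-ON lungs 6 were called higher and 3 lower (42.9%, where 27.9% of all genes were called), and 12 did not pass. Ahnak, which encodes a giant scaffold protein, is among the 12 by its brightest probe (0.38; limma, adjusted p = 0.0573), but its other probes were called higher at 1.70 and 1.27. The median change was 0.21. The list thus moved in both directions. Many of its genes are also used by other lung cells.

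Gramd2, a lipid-binding protein gene with a restricted type I pattern, measured 7.54, 7.35 and 7.36 in hSRY-OFF and 8.49, 8.84 and 8.82 in hSRY-ON lungs. It rose by 1.30 ± 0.14 (SE; limma, adjusted p = 0.00187), and its second probe gave 1.16. All hSRY-ON lungs were well above the hSRY-OFF lungs on both. The cytochrome P450 gene Cyp2b10 rose by 3.03, from 8.09 ± 0.23 (SD, n = 3) to 11.11 ± 1.01 (SD, n = 3), with hSRY-ON values of 11.85, 11.53 and 9.96 (limma, adjusted p = 0.00540). Sec14l3, a lipid transfer protein gene, rose by 0.73 (limma, adjusted p = 0.00886). Both Cyp2b10 and Sec14l3 are also known from airway epithelium. Both calls were kept when any 1 array was left out. The other rises, chosen here after their values were seen, were 0.75 for the metalloproteinase inhibitor Timp3, and 0.50 and 0.43 for Col4a4 and Col4a3, which encode partner chains of type IV collagen in the basement membrane shared by type I cells and capillaries (limma, adjusted p = 0.0116, 0.0266 and 0.0380). A second, dimmer Timp3 probe was not called at 0.34, while the second Col4a4 probe was called at 0.68. Each collagen call was lost without any 1 hSRY-OFF array, with an adjusted p from 0.0778 to 0.123, and without hSRY-ON replicate 2, and that of Col4a3 also without hSRY-ON replicate 1. The Timp3 call was lost without hSRY-OFF replicate 1 (adjusted p = 0.0533).

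Among the falls, the guidance factor Sema3e was detected on all hSRY-OFF and no hSRY-ON arrays. It was lower by at least 1.61-fold, counted from the hSRY-OFF mean to the floor of detection on the hSRY-ON arrays. It passed the detection filter through hSRY-OFF alone, so its call is no support of its own, and 2 genes of the list were called lower where detection on all 6 arrays was required. Igfbp2, a binding protein of insulin-like growth factors that marks fully matured type I cells, measured 12.08, 11.88 and 11.95 in hSRY-OFF and 10.63, 10.12 and 11.17 in hSRY-ON lungs. It fell by 1.33 ± 0.25 (SE) on the log2 scale (limma, adjusted p = 0.0109), and its second probe by 1.27. Itgb6, the epithelial integrin chain that activates TGF-beta, changed by -0.59 (limma, adjusted p = 0.00996). It has 3 tested probes, of which 2 were called lower and 1, at -0.45, was not. Igfbp2 and Itgb6 were likewise named after their values were seen. Vegfa, the growth factor through which type I cells signal to capillaries, had a change of -0.02 on its brightest probe (limma, adjusted p = 0.937).

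Regulators of the type I state were listed together with genes used to read YAP and TAZ activity. The genes of this list were called about as often as other genes. Of its 18 genes 17 were on the array and 14 were tested, with 1 called higher and 3 lower (28.6%, where 27.9% of all genes were called). The 1 called higher was Ctgf, a gene used to read that activity, and the 3 called lower were regulators. Wwtr1, which encodes TAZ, measured 9.38, 9.22 and 8.63 in hSRY-OFF and 8.32, 8.37 and 8.37 in hSRY-ON lungs, a change of -0.73 (limma, adjusted p = 0.0361). This call too was kept without hSRY-OFF replicate 3 and lost without any other single array (adjusted p from 0.0599 to 0.122). Yap1, its paralog, measured 10.70, 10.87 and 10.76, and 10.82, 10.85 and 10.64, a change of -0.0044 ± 0.12 (SE; limma, adjusted p = 0.982). The TAZ gene was thus lower in every hSRY-ON lung and the YAP gene was not. Tead2, a DNA-binding partner of both, fell by 1.05, from 11.85 ± 0.11 (SD, n = 3) to 10.79 ± 0.20 (SD, n = 3) (limma, adjusted p = 0.00369). Stk3, an upstream kinase of the Hippo pathway, fell by 0.68 (limma, adjusted p = 0.0130), a call lost without hSRY-OFF replicate 1 or 2 (adjusted p = 0.0593 and 0.0603).

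Ctgf and Cyr61 are the genes most used to read YAP and TAZ activity, and they gave different results. Ctgf measured 13.50, 13.52 and 13.65 in hSRY-OFF and 14.59, 14.64 and 14.13 in hSRY-ON lungs, a rise of 0.90 ± 0.16 (SE; limma, adjusted p = 0.00909). The brightest probe of Cyr61 had a change of -0.03 ± 0.18 (SE; limma, adjusted p = 0.908). Amotl2, a further such gene of the list, was at -0.07 on its brightest tested probe (limma, adjusted p = 0.848). Neither probe of Nkx2-1 was called. Their changes were -0.42 and 0.33, on opposite sides of 0, and the SD of the first was 0.73 in hSRY-ON.

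The paralogs of the genes studied were compared next. All 12 were tested, and 3 were called higher and none lower in limma (25%, where 27.9% of all genes were called). Besides Aqp5, the lung makes Aqp1 in capillaries and Aqp3 and Aqp4 in airway cells. Aqp3 was not detected on any hSRY-OFF array and was detected on all hSRY-ON arrays, at 6.77 ± 0.07 (SD, n = 3), at least 2.78-fold higher. It passed the detection filter through hSRY-ON alone, so its call is no support of its own, and where detection on all 6 arrays was required 1 of 9 paralogs was called. Aqp4 measured 5.73, 5.64 and 5.37 in hSRY-OFF and 7.58, 7.02 and 7.84 in hSRY-ON lungs, a change of 1.90 (limma, adjusted p = 0.00241). Its probe was detected on 2 hSRY-OFF arrays. Aqp1 had a change of -0.02 (limma, adjusted p = 0.903). The other call was Clic3, a paralog of Clic5, which measured 12.08, 12.21 and 12.18, and 12.90, 12.77 and 12.83. It was higher by 0.67 (limma, adjusted p = 0.00672), the opposite direction to Clic5.

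Among the ligands and partners of podoplanin and RAGE, 7 of 13 genes were tested and 2 (28.6%) were higher in hSRY-ON (limma). Of all genes, 27.9% were called and 14.9% were called higher. The 2 partners called were S100a8 and S100a9, inflammatory proteins of myeloid cells that can bind RAGE. S100a8 measured 11.83, 11.84 and 11.95 in hSRY-OFF and 12.63, 13.18 and 14.26 in hSRY-ON lungs, a change of 1.48 (adjusted p = 0.0272). S100a9 changed by 1.81 (adjusted p = 0.0410), and by 1.14 without hSRY-ON replicate 3. Both were highest in hSRY-ON replicate 3, and both calls were lost without any 1 hSRY-OFF array (adjusted p from 0.0704 to 0.119). That of S100a8 was also lost without hSRY-ON replicate 2 (adjusted p = 0.0628). Clec1b, the platelet receptor of podoplanin, had a change of 0.10 ± 0.29 (SE; limma, adjusted p = 0.815).

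Other epithelial states were set beside the type I genes. Of 9 genes of the transitional state between type II and type I cells, all were tested and 6 (66.7%) were higher in hSRY-ON. Of all genes, 14.9% were called higher. The median change of the 9 was 0.95. Like the others, this list was chosen with earlier results of these data known. The tight junction gene Cldn4 rose by 2.33, with values of 7.59, 7.63 and 7.48 in hSRY-OFF and 9.39, 10.31 and 9.996 in hSRY-ON lungs (limma, adjusted p = 0.00142). The keratin gene Krt19 rose by 1.18, the cell cycle inhibitor gene Cdkn1a by 1.41 and the galectin gene Lgals3 by 1.17 (limma, adjusted p = 0.00162, 0.0156 and 0.0119). Krt8 and Krt18, which encode partner keratins of simple epithelia, were the remaining calls. In all 6 the hSRY-ON lungs lay above the hSRY-OFF lungs, and of all tested probes 46.6% had groups that did not overlap. These 6 were picked by their calls, so their separation is no further support. Hbegf went the other way at -0.57, while Sfn and Areg were at 0.90 and 0.74. The groups overlapped for these 3 and none was called (limma, adjusted p from 0.0663 to 0.191). With an offset of 50, the variance trend, no background correction or without hSRY-ON replicate 3, 1 gene of the list was called lower. The summed signal of the 9 genes ranged from 7602 to 7800 and from 12347 to 16983. Only Cldn4 and Krt19 were called without hSRY-OFF replicate 1 or without hSRY-OFF replicate 2. Mesothelium and airway epithelium also make these keratins, airway epithelium makes Cldn4, macrophages make Lgals3, and the mesothelial rise is given above. The part of those cells in these values was not tested.

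Of 11 type II cell genes, all were tested, with 5 (45.5%) higher and none lower (limma), where 14.9% of all genes were called higher. The median change was 0.39. Sftpb and Abca3, needed for surfactant assembly, rose by 0.67 and 0.60 (limma, adjusted p = 0.00800 and 0.00888), Napsa by 0.48 and Lyz2 by 0.40 (limma, adjusted p = 0.0222 and 0.0404). Macrophages also make Lyz2, whose probe is the brightest of the list (14.44 in hSRY-OFF, 14.84 in hSRY-ON). Their part in its value was not tested. A second Abca3 probe was at -0.07 and was not called. Sftpc, the most specific gene of the list, had a change of -0.25 and did not pass. Lamp3, Etv5 and Lpcat1, named after their values were seen, were also below 0, at -0.31, -0.30 and -0.18, and were not called. The summed signal of the list ranged from 97713 to 101691 in hSRY-OFF and from 121164 to 125776 in hSRY-ON lungs. That of the 7 tested type I genes, 1 probe each, ranged from 47960 to 51375 and from 53346 to 56415. On average the sums were 1.24 and 1.10 times as high in hSRY-ON, and the level of both sums rests mostly on their brightest probes. The rise of the type I sum did not come from its brightest probe, that of Ager (ILMN_1224092), which changed by -0.03. Gprc5a was the only called rise in that sum. Only 2 type II genes were called without any 1 hSRY-OFF array, without hSRY-ON replicate 2 or with the replicate number as a block, and 3 with cyclic loess.

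**Figure D4:**
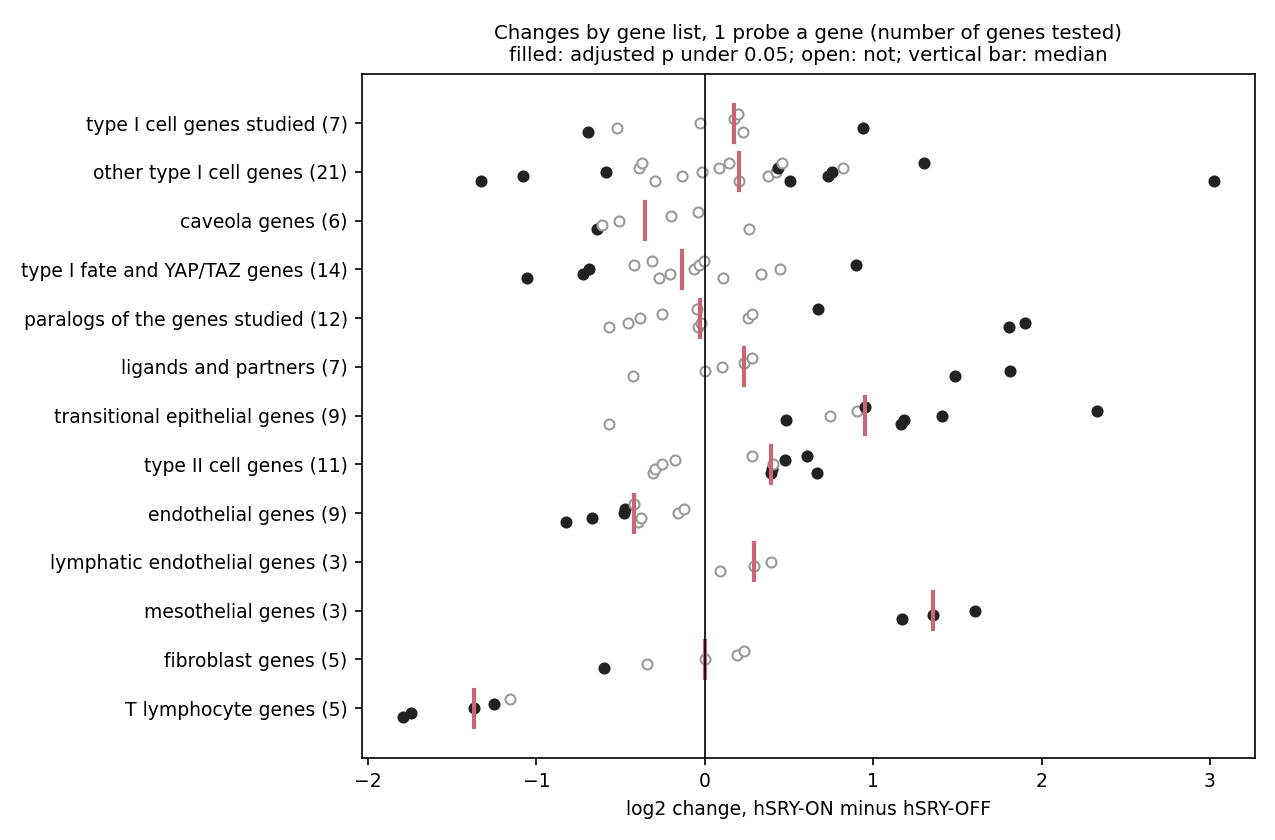
Log2 change of every tested gene (horizontal axis, hSRY-ON minus hSRY-OFF, 1 probe a gene) in each list but that of heart muscle, with calls filled, other genes open and the median as a red bar. The 7 type I genes studied have a median of 0.17 with 1 call on each side, whereas the transitional and mesothelial genes lie mostly to the right and the endothelial and T lymphocyte genes to the left.

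Markers of the other cells that could carry the genes studied were also read. Over all genes, 27.9% were called (14.9% higher and 12.9% lower). Of 5 fibroblast genes 1 was called, Col1a1 at -0.60 (limma, adjusted p = 0.0494). None was called with median scaling, without a filter on dim probes, with detection on at least 1 array or with the replicate number as a block, or without replicate 1 or 2 of either group. All 5 T lymphocyte genes, listed because these cells can express Rtkn2, had hSRY-ON values below every hSRY-OFF value. The groups did not overlap for 46.6% of all tested probes. Of the 5 genes 4 were called, and the median change of the 5 was -1.37. Cd3d, which was not called, was just separate, with values up to 8.62 in hSRY-ON and from 8.64 in hSRY-OFF. Heart muscle is another site of Hopx, and of 7 tested heart genes Nppa was called higher while Myl4 and Sln were called lower. Myl7 had a change of -0.99 (limma, adjusted p = 0.0719). Since the probes of Hopx and Rtkn2 were not detected, no value of either gene moved with these markers.

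The proximal promoters of these genes were read in RefSeq (GRCm38.p6), as windows from 250 bases before to 50 after each transcript start. They were matched for 7 of the 9 genes, in 9 windows. The letters AACAAT, a core that SRY and SOX proteins bind, were searched on both strands. They were in 1 of the 9 windows and in 10.7% of all 32851 windows. The TEAD core CATTCC, also on both strands, was in 0 of the 9 windows and in 14.7% of all windows. Neither was in the window of Clic5, the called gene that had one. Its 250 bases before the start, on the plus strand at chr17:44188322-44188571, are shown because it is the member that fell. The match lay upstream of a Hopx start, on the minus strand at chr5:77095414-77095473, where it reads in capitals as the reverse complement of AACAAT. A match of 6 letters is a description and no sign that a factor binds there.
Clic5: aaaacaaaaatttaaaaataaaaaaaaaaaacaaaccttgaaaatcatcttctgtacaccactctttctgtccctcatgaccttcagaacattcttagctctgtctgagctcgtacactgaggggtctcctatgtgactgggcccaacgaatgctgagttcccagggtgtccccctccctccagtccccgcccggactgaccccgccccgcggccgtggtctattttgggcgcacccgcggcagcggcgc
Hopx: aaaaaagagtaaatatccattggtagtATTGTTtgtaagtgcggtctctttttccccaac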

How the data were processed

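Total RNA of 6 lungs, 3 for each group, was turned into biotin-labelled cRNA for Illumina MouseRef-8 v2.0 BeadChips. The authors deposited, for each probe and array, an intensity that was neither background-corrected nor normalized between arrays, and a detection p-value. The bead summary software is not given in the sources used here. The study used the count-based package TCC, which models reads. Because the deposited values are intensities, limma 3.58.1 (R 4.3.3) took its place. Normexp background correction, fitted through the detection p-values, was followed by an offset of 16, quantile normalization between arrays and the log2 transform. The offset compresses the changes of dim probes, while the background correction enlarges them. Without background correction the change of Clic5 was -0.53 instead of -0.70. The median of the T lymphocyte genes was -0.75 instead of -1.37. A probe was tested if at least 3 arrays detected it at p under 0.05 (13841 of 25697 probes). The comparison used lmFit and eBayes (two-sided, no covariates), with Benjamini-Hochberg adjustment across every tested probe. Nothing in the labels says more than that the arrays were of separate samples. Fits that leave out an array keep the same probes and renormalize the other arrays. The pipeline was tested on simulated data.

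Lists are counted by gene, with the tested probe of highest mean. The members and lists were chosen with earlier results of these data known, and the lists have no test of their own. Summed signals are sums of normalized linear intensities. Named genes are all members, up to 4 called genes of smallest p in each list, and a few fixed ones (Nkx2-1, Yap1, Wwtr1, Ctgf, Cyr61, Clec1b, S100a8, Sftpc, Nppa, Myl7). The other caveola genes, Vegfa, Aqp1, Ahnak, Krt8, Krt18 and some others are named outside this rule, after their values were seen. For an undetected group, bounds use the lowest detected signal of its arrays. Of the list genes, 2 were matched through RefSeq synonyms and 9 were not matched. The correlation of deviations from group means between arrays of the same replicate number was -0.11, 0.096 and -0.093, so the numbers were not taken as pairs. The number of arrays limits the precision.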

Additional observations from a re-analysis of the deposited data

How the results depend on the processing

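All alternatives were planned. The 2 calls among the type I cell genes, Gprc5a and Clic5, were kept under each other background correction, normalization, detection filter and variance model and with array weights. With the replicate number as a block there were also 2 calls, and 2655 instead of 3728 over all probes. At an adjusted p under 0.01 there was 1 call (Gprc5a), with 1326 over all probes and 12 instead of 25 among the 69 tested genes of the 6 lists of type I biology. Leaving out single arrays gave between 1 and 3 calls among the type I genes, between 1652 and 4442 over all probes, and between 13 and 30 in those lists. Gprc5a remained called in all 17 alternatives, with changes from 0.88 to 1.03 and an adjusted p of at most 0.0236. Clic5 kept its direction in all 17 and its call in 13, and Cav1 was called in 1. The Ager probe ILMN_1224092 was above 0 with median scaling (0.20) and cyclic loess (0.037), and ranged from -0.073 to 0.034 when single arrays were left out, above 0 when that array was replicate 2 of hSRY-OFF (0.0046) or replicate 1 of hSRY-ON. Gp38 was never called, with changes from 0.19 to 0.38 and an adjusted p from 0.0507 to 0.370. The probes of Gp38, Emp2 and Aqp5 and the other Ager probe kept their direction and stayed uncalled in all 17. Counts of the smaller lists moved with single arrays. Without any 1 hSRY-OFF array 2 endothelial, 2 T lymphocyte and 1 mesothelial gene were called. The list that holds the regulators had 2 calls without hSRY-OFF replicate 1 or 2. Without an hSRY-ON array, endothelial calls were 2 without replicate 3, T lymphocyte calls 2 without replicate 1 or 2, mesothelial calls 1 without replicate 2, and paralog calls 5 without replicate 1. Other settings also moved them by over 1.5 times. Caveola calls were 2 without background correction, with an offset of 50, with detection on all arrays and with the variance trend, and 0 in the settings named with Ptrf. Paralog calls were 1 with detection on all arrays and 6 with the variance trend, and partner calls 4 without background correction and 1 without a filter. Type II calls were 3 with cyclic loess or detection on at least 1 array, and T lymphocyte calls 2 without a filter. The cause was not tested.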
